A study of Mus musculus with 12 samples.

Results

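The genes described are 10 early response genes: the zinc finger transcription factor genes Egr1, Egr2 and Egr3, the immediate early response genes Ier2, Ier3 and Ier5, the nuclear receptor gene Nr4a1, the growth regulator Myc, the transcription factor gene Srf and the antiproliferative gene Btg2. They were chosen by name, with earlier results of these data known, as 10 of the 24421 gene symbols of the expression table. All 10 were among the 10899 genes with enough reads to be tested. RNA was sequenced from RAW 264.7, a macrophage line of the mouse strain BALB/c that was bought from ATCC. Wild type (WT) cells were left untreated, given LPS (lipopolysaccharide from bacterial cell walls) for 2 h, treated with a Jak inhibitor, or treated with both for 2 h, and Parp14 -/- knockout (KO) cells were left untreated or treated for 2 h with LPS. Parp14 encodes an ADP-ribosyltransferase. Each of these 6 groups had 2 libraries, and neither the number of KO clones nor the inhibitor's name or dose is given in the sources.

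Early response genes are transcribed within minutes of a stimulus, without new protein synthesis, and their mRNAs are short-lived. In macrophages LPS binds the receptor TLR4, which switches on NF-kB and, through the kinase Tpl2, the ERK MAP kinases; ERK phosphorylates the ternary complex factors that sit with SRF on CArG boxes of early gene promoters. EGR proteins bind GC-rich sites and recruit their own corepressors, the NAB proteins, while the products of Ier3, Btg2 and Myc act on survival and growth. Jak kinases act downstream, once secreted interferon and other cytokines bind their receptors.

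Promoters of 6 of the 10 genes (Egr2, Ier3, Ier5, Nr4a1, Srf and Btg2) were found in the RefSeq promoter table, build GRCm38.p6, which runs from 250 bases before to 50 bases after each transcript start. Egr1, Egr3, Ier2 and Myc had no entry. The motifs searched on both strands were the CArG box bound by SRF, the CRE bound by CREB (TGACGTCA) and the shorter TGACG, which lies within the CRE on both strands, the EGR site GCGNGGGCG, the E-box CACGTG bound by MYC, the AP-1 site TGANTCA, the TATA box TATAAA and the NF-kB site. The 5 stretches below are shown because they hold the sites of the factors named above, Srf and Egr2 with CArG boxes and Ier3 with an NF-kB site. Each is the part upstream of the RefSeq start that lies outside the gene's annotated exons, written 5′ to 3′ on the gene's strand, with motif matches in capitals.

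Srf, chr17:46556176-46556412, minus strand: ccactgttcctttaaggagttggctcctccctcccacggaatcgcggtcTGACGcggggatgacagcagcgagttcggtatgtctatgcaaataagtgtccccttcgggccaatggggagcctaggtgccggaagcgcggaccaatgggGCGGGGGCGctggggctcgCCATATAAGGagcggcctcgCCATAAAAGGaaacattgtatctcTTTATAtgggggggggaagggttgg

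Egr2, chr10:67537619-67537868, plus strand: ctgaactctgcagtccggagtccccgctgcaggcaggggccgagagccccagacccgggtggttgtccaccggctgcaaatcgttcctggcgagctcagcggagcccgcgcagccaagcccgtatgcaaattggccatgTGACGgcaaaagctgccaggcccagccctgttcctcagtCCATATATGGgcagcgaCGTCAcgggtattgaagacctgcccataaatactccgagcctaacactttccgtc

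Ier3, chr17:35821463-35821683, plus strand: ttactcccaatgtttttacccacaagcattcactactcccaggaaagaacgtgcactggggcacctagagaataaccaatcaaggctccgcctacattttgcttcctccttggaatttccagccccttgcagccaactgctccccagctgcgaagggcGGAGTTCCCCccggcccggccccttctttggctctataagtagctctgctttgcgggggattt

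Btg2, chr1:134079156-134079405, minus strand: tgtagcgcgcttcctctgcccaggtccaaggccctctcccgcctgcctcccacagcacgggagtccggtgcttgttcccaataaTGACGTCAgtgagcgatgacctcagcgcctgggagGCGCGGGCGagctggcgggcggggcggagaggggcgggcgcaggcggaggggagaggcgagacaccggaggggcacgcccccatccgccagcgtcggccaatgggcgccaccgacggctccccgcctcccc

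Nr4a1, chr15:101266596-101266845, plus strand: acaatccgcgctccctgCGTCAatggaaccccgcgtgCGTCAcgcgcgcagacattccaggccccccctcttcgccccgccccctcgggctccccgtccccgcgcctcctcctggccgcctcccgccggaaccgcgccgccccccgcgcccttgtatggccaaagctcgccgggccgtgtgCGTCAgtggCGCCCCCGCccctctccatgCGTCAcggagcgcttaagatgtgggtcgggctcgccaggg

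Counted from the RefSeq start, the Srf window held 2 CArG boxes, at -82 to -73 and at -62 to -53, with an EGR site at -101 to -93, TGACG at -201 to -197 and a TATA box on the opposite strand at -38 to -33. Egr2 had a CArG box at -72 to -63 between a pair of TGACG matches. A CArG box was also found at -72 to -63 of the Egr2 transcript that starts at 67537566, and an E-box at -27 to -22 of the one that starts at 67535499. Ier3 held a single match, an NF-kB site on the opposite strand at -92 to -83. Btg2 held a full CRE at -166 to -159 and an EGR site at -131 to -123, and Nr4a1 held 4 TGACG matches on the opposite strand, and on the same strand as these an EGR site at -60 to -52 and an NF-kB site across the start, at -3 to 6. None of these letters were in the Ier5 window. Of the 32851 windows of the table, 1.63% held a CArG box, 1.79% a CRE, 20.8% TGACG, 5.55% an EGR site, 7.15% an E-box, 7.81% an AP-1 site, 13.6% a TATA box and 4.51% an NF-kB site.

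Each library had 35.9 to 45.7 M reads in genes, and levels are given in CPM scaled to that sum. A change is the difference of group means of log2(CPM + 1), given with its standard error (SE) and with limma's p after Benjamini-Hochberg adjustment over the 10899 tested genes, and is called when that p is under 0.05. The log2(CPM + 1) scale understates the change of a gene near 1 CPM, such as Nr4a1 or untreated Myc. Since no label speaks of separate cultures, p reflects only how far these samples scatter, and that scatter may be technical. Parp14 was at 88.1 ± 16.5 CPM in untreated WT and 11.0 ± 1.39 CPM in untreated KO cells, and at 367 ± 73.8 and 37.7 ± 3.96 CPM after LPS (SD, n = 2). All 9 macrophage markers in the table were above 1 CPM in every library, with a summed level of 11390 to 15160 CPM, and the T cell, fibroblast and epithelial marker lists summed to at most 0.848 CPM, with Cd3e, Col1a2 and Epcam at 0. In bulk RNA fewer expressing cells and less RNA per cell cannot be told apart.

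LPS raised all 10 genes in WT cells, where 13.7% of tested genes were called higher and 53.6% lower. Median log2 change was 1.39 over the 10 genes and -0.30 over all tested genes. Since the 10 were chosen with earlier results of these data known, this contrast is a description and not a test. The largest rise was that of Myc, and the smallest that of Nr4a1, the one gene of the 10 that stayed under 10 CPM in every library. In each of the 10 genes both LPS libraries were above both untreated libraries. The share of all tested genes without such overlap is not given, here or in the comparisons below. In KO cells LPS raised all 10 as well, again with no overlap, beside 13.9% of tested genes called higher and 52.7% called lower, with medians of 1.62 for the 10 genes and -0.29 for all genes. Rescaling by the median of ratios moved the median of all genes to -0.04 in WT and to -0.03 in KO cells, and all 10 genes stayed called higher in both genotypes. With it the split of all tested genes became 26.4% higher and 32.5% lower in WT cells and 26.7% and 33.1% in KO cells.

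**Figure D1:**
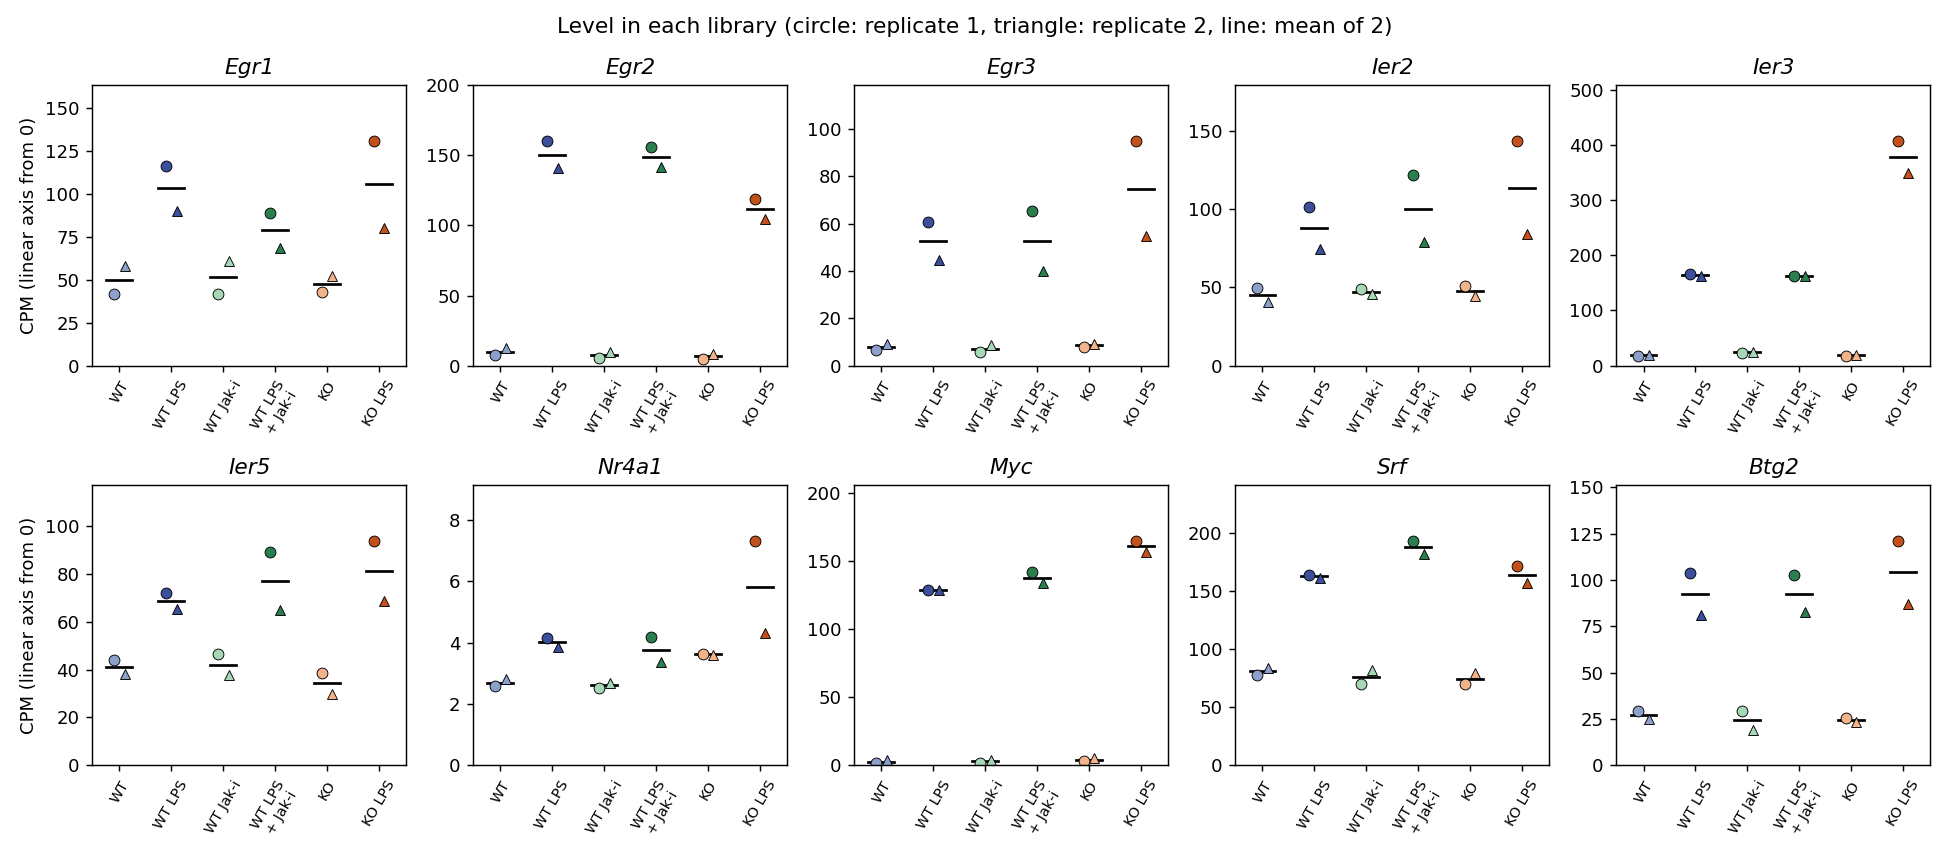
CPM of each gene (vertical axis, linear from 0, a separate scale per gene) in the 6 groups, with replicate 1 as a circle, replicate 2 as a triangle and their mean as a line. Within each genotype and inhibitor setting the LPS libraries lie above those without LPS for every gene, and the KO LPS libraries of Ier3, at 407 and 350 CPM, stand above all other libraries of that gene.

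**Figure D2:**
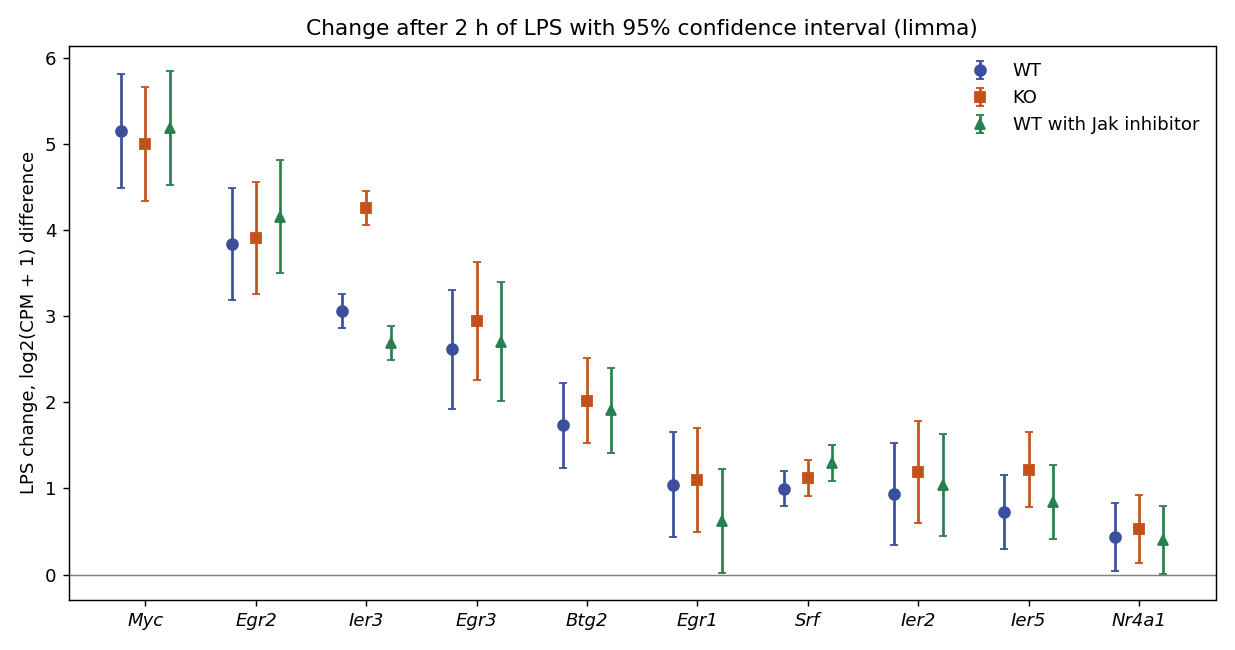
Change of log2(CPM + 1) after 2 h of LPS in WT cells, KO cells and WT cells with the Jak inhibitor, with the 95% confidence interval of the limma fit, ordered by the WT change. Values run from 5.15 for Myc to 0.44 for Nr4a1 in WT cells, and the KO interval of Ier3 lies above its WT interval.

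The EGR genes encode zinc finger factors that bind the same GC-rich site, and they started from different levels. Egr2 (chromosome 10, 67535475 to 67542188, plus strand), a regulator of myeloid differentiation, stood at 7.28 and 12.5 CPM in the untreated WT libraries and at 160 and 141 CPM after LPS, which is 3.84 on the log2 scale (SE 0.29, adjusted p = 2.24e-06). In KO cells it was at 5.01 and 8.34 CPM untreated and at 119 and 104 CPM after LPS, a change of 3.91 (SE 0.29, adjusted p = 1.96e-06). Both KO libraries with LPS lay below both WT libraries with LPS. The untreated libraries of the genotypes overlapped, and between libraries of the same number Egr2 differed by -0.46 and -0.53 on the log2 scale (KO minus WT) untreated and by -0.43 and -0.43 after LPS.

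Egr3 (chromosome 14, 70077203 to 70082614, plus strand), a factor of lymphocyte activation, was at 6.44 and 9.07 CPM in untreated WT cells and at 60.5 and 44.7 CPM after LPS, which is 2.61 on the log2 scale (SE 0.31, adjusted p = 4.33e-05). The KO libraries had 7.97 and 9.07 CPM untreated and 94.9 and 54.8 CPM after LPS, a change of 2.94 (SE 0.31, adjusted p = 1.93e-05). LPS libraries of the genotypes overlapped, and replicate 1 was the higher library in both.

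Egr1 (chromosome 18, 34859823 to 34864984, plus strand), the family member most often used as a readout of ERK signalling, was already at 41.5 and 58.4 CPM in untreated WT cells. After LPS it was at 117 and 90.1 CPM, which is 1.04 on the log2 scale (SE 0.27, adjusted p = 0.0065), and in KO cells it went from 42.9 and 52.4 to 131 and 80.5 CPM, a change of 1.10 (SE 0.27, adjusted p = 0.00493). The LPS and untreated libraries were apart in both genotypes, and the KO and WT libraries overlapped. The WT call of Egr1 was lost without untreated WT replicate 1 (0.80, adjusted p = 0.0583) and without WT LPS replicate 1 (0.86, adjusted p = 0.0515).

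The Ier genes are named for their rapid induction. Ier2 and Ier5 encode related nuclear regulators, while Ier3 encodes a short membrane-anchored protein that acts on cell survival and is a known NF-kB target. Ier3 (chromosome 17, 35821684 to 35822923, plus strand) was at 17.8 and 19.8 CPM in untreated WT and at 17.9 and 19.7 CPM in untreated KO cells. After LPS it was at 166 and 163 CPM in WT and at 407 and 350 CPM in KO cells. The log2 changes were 3.06 (SE 0.088, adjusted p = 5.26e-09) and 4.26 (SE 0.088, adjusted p = 7.98e-10). The untreated libraries of the genotypes overlapped, and after LPS both KO libraries were above both WT libraries.

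Ier2 (chromosome 8, 84661331 to 84662852, minus strand) went from 49.4 and 40.9 to 101 and 74.6 CPM in WT cells, which is 0.94 on the log2 scale (SE 0.26, adjusted p = 0.01). In KO cells it went from 50.6 and 44.7 to 144 and 84.2 CPM, a change of 1.19 (SE 0.26, adjusted p = 0.00264). Untreated and LPS libraries were apart in both genotypes, and the replicates with LPS differed more than the untreated ones. The WT call of Ier2 was lost without untreated WT replicate 2 (0.80, adjusted p = 0.0637) and without WT LPS replicate 1 (0.72, adjusted p = 0.0782).

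Ier5 (chromosome 1, 155096361 to 155099636, minus strand), which encodes a regulator of heat shock factor, went from 44.1 and 38.2 to 72.0 and 65.3 CPM in WT cells, which is 0.73 on the log2 scale (SE 0.19, adjusted p = 0.00757). In KO cells it went from 38.5 and 30.0 to 93.8 and 68.7 CPM, a change of 1.22 (SE 0.19, adjusted p = 0.000333). Both genotypes showed no overlap of LPS and untreated libraries, and the WT call was lost without untreated WT replicate 2 (0.63, adjusted p = 0.0521).

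Nr4a1 (chromosome 15, 101254269 to 101274795, plus strand) encodes an orphan nuclear receptor, a classic early gene in lymphocytes and in macrophages. It was the weakest responder and the lowest gene, with 98 to 263 reads per library. It went from 2.59 and 2.80 to 4.16 and 3.85 CPM in WT cells, which is 0.44 on the log2 scale (SE 0.18, adjusted p = 0.0498), and from 3.63 and 3.61 to 7.32 and 4.33 CPM in KO cells, a change of 0.53 (SE 0.18, adjusted p = 0.0238). The libraries did not overlap, but the WT call was lost without any 1 of the 4 libraries (adjusted p = 0.0976 to 0.167), without the filter on low values (0.0939) and on the deposited scaling (0.36, adjusted p = 0.0724). The KO call was lost without either untreated KO library (0.0751 and 0.0764), without KO LPS replicate 1 (0.21, adjusted p = 0.193) and in a fit of the compared groups alone (0.0629). On the ratio scale its mean level was 1.49 times the untreated level in WT and 1.61 times in KO cells.

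Myc (chromosome 15, 61985391 to 61990374, plus strand), the growth and metabolism regulator, was nearly silent before LPS, with 72 and 150 reads in the untreated WT libraries, or 1.83 and 3.75 CPM. After LPS it was at 129 and 129 CPM, which is 5.15 on the log2 scale (SE 0.29, adjusted p = 3.8e-07). In KO cells it went from 3.16 and 5.15 to 165 and 156 CPM, a change of 5.0 (SE 0.29, adjusted p = 4.43e-07). The LPS libraries of the genotypes did not overlap, with KO the higher. The untreated libraries did, and between libraries of the same number KO was higher by 0.56 and 0.37 on the log2 scale untreated and by 0.35 and 0.28 after LPS.

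Srf (chromosome 17, 46548329 to 46556175, minus strand), the factor that binds the CArG boxes and whose own promoter holds 2 of them, had a level already high before LPS. It went from 77.8 and 84.3 to 165 and 161 CPM in WT cells, which is 1.00 on the log2 scale (SE 0.092, adjusted p = 8.46e-06), and from 70.0 and 79.7 to 172 and 157 CPM in KO cells, a change of 1.12 (SE 0.092, adjusted p = 3.78e-06). Its mean level thus rose 2.01-fold and 2.19-fold. Libraries of the genotypes overlapped in both conditions.

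Btg2 (chromosome 1, 134075170 to 134079120, minus strand), an antiproliferative gene that recruits the CCR4-NOT deadenylase and is also a p53 target, went from 29.2 and 24.8 to 104 and 81.0 CPM in WT cells, which is 1.73 on the log2 scale (SE 0.22, adjusted p = 7.08e-05). In KO cells it went from 25.8 and 23.4 to 121 and 87.1 CPM, a change of 2.02 (SE 0.22, adjusted p = 2.47e-05). LPS and untreated libraries were apart, and the genotypes overlapped in both conditions. No exon of the 10 genes overlapped an exon of another annotated gene on either strand, so the unstated strand setting of the counting does not split their reads with a neighbour.

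Levels of different genes were compared as mean CPM per kb of exons. In untreated WT cells the order was Ier2 at 29.7, Srf at 28.0, Ier3 at 16.6, Ier5 at 12.6, Egr1 at 11.1, Btg2 at 9.85, Egr2 at 2.91, Egr3 at 1.76, Myc at 1.03 and Nr4a1 at 0.767 CPM per kb. Of the 9 neighbouring pairs in that order 4 overlapped between libraries: Ier2 with Srf, Ier5 with Egr1, Egr1 with Btg2 and Myc with Nr4a1. After LPS in WT cells Ier3 led at 146, followed by Ier2 at 57.7, Srf at 56.3, Myc at 47.4, Egr2 at 44.3, Btg2 at 33.7, Egr1 at 23.1, Ier5 at 20.9, Egr3 at 11.9 and Nr4a1 at 1.14 CPM per kb. Myc moved from the ninth place to the fourth, and 2 of the 9 neighbouring pairs, Ier2 with Srf and Egr1 with Ier5, overlapped. In KO cells after LPS Ier3 was at 335 and the next gene, Ier2, at 74.8 CPM per kb.

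**Figure D3:**
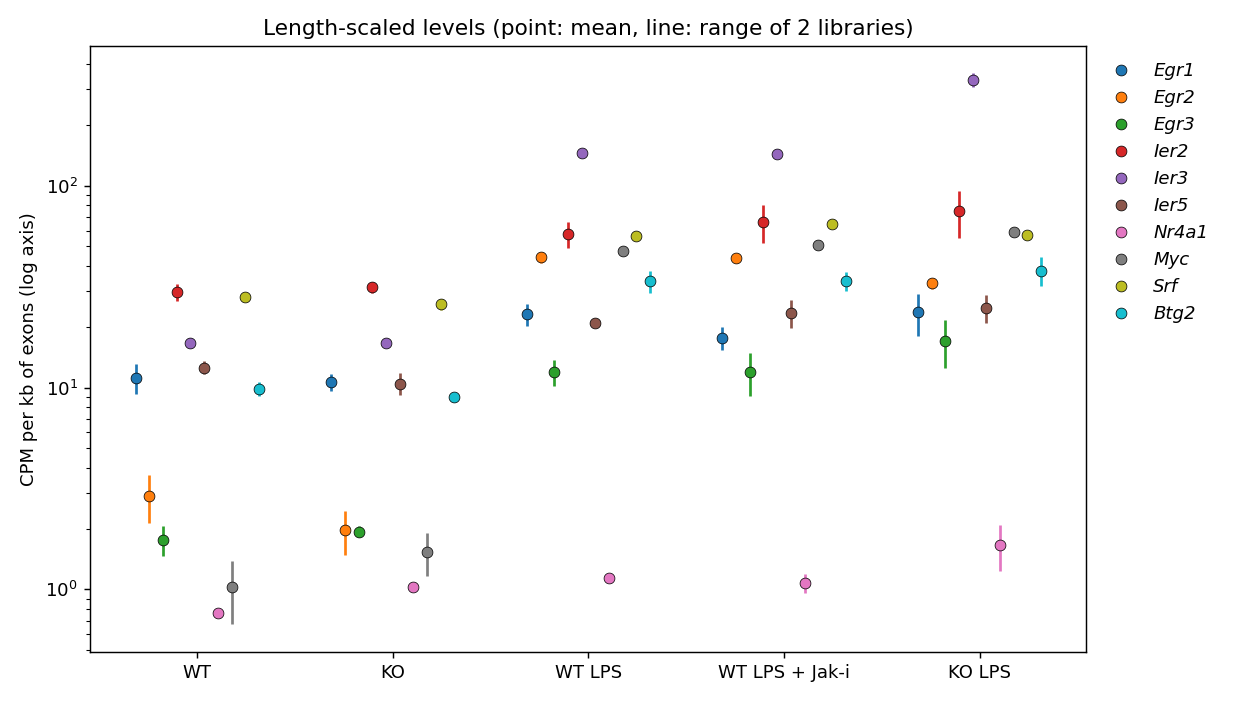
Mean CPM per kb of exons of the 10 genes on a log axis, as points, in 5 of the 6 groups, with a line for the range of the 2 libraries. Ier3 is the highest gene in the 3 LPS groups and Nr4a1 the lowest, while Egr2, Egr3 and Myc rise from the bottom of the range without LPS.

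The comparison of genotypes asks which of these genes differ between KO and WT cells. Whether a difference comes from the loss of Parp14 or from other traits of the KO cells was not tested. Without treatment none of the 10 was called between KO and WT cells, where 4.31% of tested genes were called higher and 5.37% lower in KO cells. The values ran from -0.50 for Egr2 (SE 0.29, adjusted p = 0.422) to 0.47 for Myc (SE 0.29, adjusted p = 0.472), with a median of -0.03. At an unadjusted p under 0.05 the count was also 0, and Nr4a1 was the one gene whose untreated libraries did not overlap between genotypes. With the replicate number as a block Ier5 was called lower in KO cells (-0.27, adjusted p = 0.0116), where 10.9% of tested genes were higher and 13.7% lower.

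After LPS Ier3 was called higher in KO cells, beside 6.19% of tested genes called higher and 7.66% called lower. Its log2 difference was 1.19 (SE 0.088, adjusted p = 2.8e-05), or 2.30 times the WT mean, and the difference was 1.29 between libraries numbered 1 and 1.10 between those numbered 2. The other 9 were not called. Their values ran from -0.43 for Egr2 (SE 0.29, adjusted p = 0.426) to 0.46 for Egr3 (SE 0.31, adjusted p = 0.416), and 9 of the 10 values were above 0, with a median of 0.27 against 0.00 over all genes. With the replicate block, which called 14.9% of all tested genes higher and 16.7% lower, 4 of the 10 were called, all higher in KO cells: besides Ier3 these were Ier2 (0.34, adjusted p = 0.0441), Ier5 (0.22, adjusted p = 0.0239) and Nr4a1 (0.41, adjusted p = 0.0405). Nr4a1 was also called without KO LPS replicate 2 (0.73, adjusted p = 0.00939).

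Whether LPS acted differently in KO cells was tested by the interaction, in which 0.128% of tested genes were called with a higher response in KO cells and 0.284% with a lower one. Ier3 was the one gene called among the 10: its response was larger in KO cells by 1.20 on the log2 scale (SE 0.12, 95% confidence interval 0.917 to 1.47, adjusted p = 0.00383). With the block, which called 1.67% of tested genes higher and 2.12% lower, Ier5 was called too (0.49, adjusted p = 0.0101; 0.49 with adjusted p = 1 without it). For Srf the interval was -0.167 to 0.419, for Egr1 -0.802 to 0.912, for Egr2 -0.854 to 0.986 and for Myc -1.08 to 0.783. These intervals come from the fit without the block and reflect only the scatter of these libraries.

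**Figure D4:**
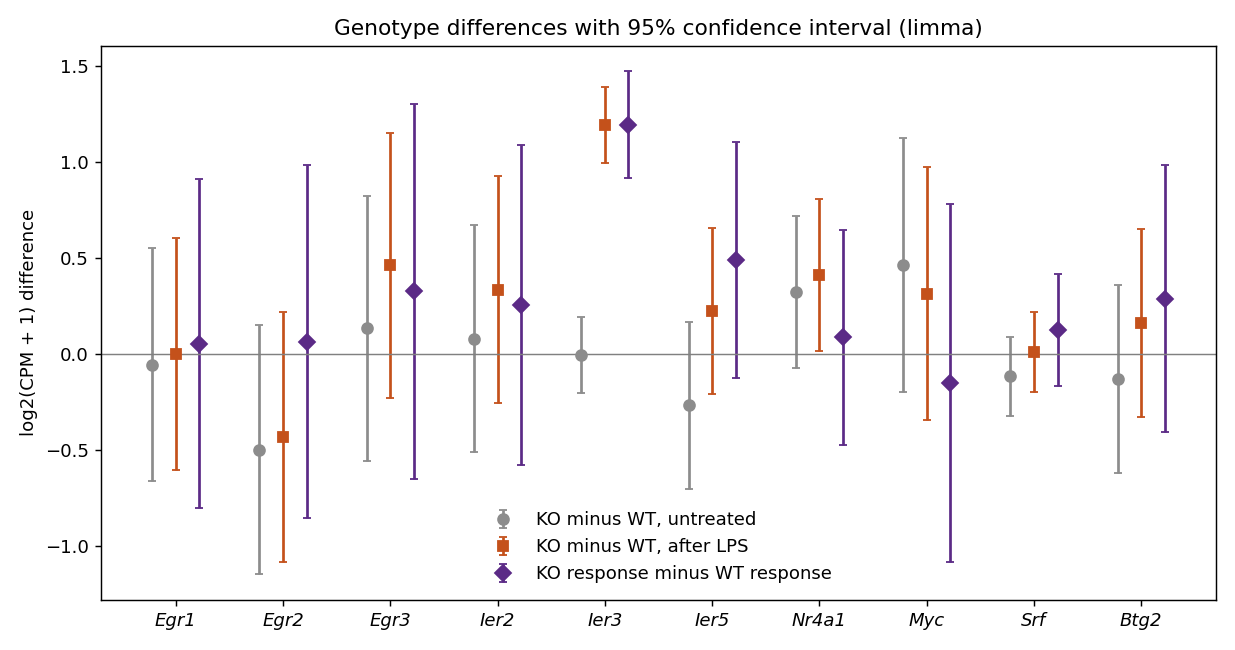
Differences of log2(CPM + 1) between KO and WT cells, untreated and after LPS, and the difference of their LPS responses, with 95% confidence intervals of the limma fit. Ier3 is at 0.00 untreated, at 1.19 after LPS and at 1.20 in the difference of responses, and the intervals of the interaction reach 0 for the other 9 genes.

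The comparison with the Jak inhibitor asks which part of the response runs through Jak kinases. Given alone the inhibitor left no gene of the table called in either direction (0% of tested genes higher and 0% lower), and so none of the 10. Ier3 had the lowest p of the 10, at 23.4 and 25.5 CPM against 17.8 and 19.8 CPM untreated, without overlap, a log2 difference of 0.36 (SE 0.088, unadjusted p = 0.00231, adjusted p = 1). With LPS the inhibitor left 0.0734% of tested genes higher and 1.04% lower than LPS alone, among them none of the 10. The values ran from -0.39 for Egr1 (SE 0.27, adjusted p = 0.899) to 0.20 for Srf (SE 0.092, adjusted p = 0.7). None of the 10 was under an unadjusted p of 0.05. The groups did not overlap for Egr1, Myc and Srf, and the share of all tested genes without overlap is not given. Under the same treatment Parp14 was lower (-1.56, SE 0.2, adjusted p = 0.00403). Cish and Socs3, known targets of Jak and STAT signalling, were the planned checks of the inhibitor. They were at 0.03 and 0.13 and were not called. For the inhibitor alone the replicate block called Socs3 higher (0.61, adjusted p = 0.00956). How far Jak kinases were inhibited was not tested.

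With the inhibitor present LPS raised 8 of the 10 genes, where 13.5% of tested genes were called higher and 50.8% lower. Myc went from 1.86 and 4.09 to 142 and 133 CPM (5.18, SE 0.29, adjusted p = 3.78e-07) and Srf from 70.4 and 82.2 to 194 and 182 CPM (1.29, SE 0.092, adjusted p = 1.66e-06). Egr2 changed by 4.16 (SE 0.29), Egr3 by 2.71 (SE 0.31), Ier3 by 2.69 (SE 0.088), Btg2 by 1.91 (SE 0.22), Ier2 by 1.04 (SE 0.26) and Ier5 by 0.84 (SE 0.19). Egr1 was at 42.0 and 60.9 CPM with the inhibitor and at 89.2 and 68.6 CPM with both (0.62, SE 0.27, adjusted p = 0.0693), and Nr4a1 at 2.53 and 2.70 and at 4.19 and 3.36 CPM (0.40, SE 0.18, adjusted p = 0.0738). No groups overlapped for any of the 10.

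Both Egr1 and Nr4a1 were called with the replicate block (adjusted p = 0.0208 and 0.0201, beside 18.4% of tested genes higher and 59.7% lower), on the median-of-ratios scale (0.0189 and 0.0154) and in edgeR (0.0176 and 0.0116), and also in DESeq2 and in a fit of the compared groups alone. Egr1 was also called without WT inhibitor replicate 2 (0.88, adjusted p = 0.0349). Ier2 lost its call without replicate 1 of the group with both agents (0.73, adjusted p = 0.0564). The difference of the LPS response with and without the inhibitor was called higher in 0.0184% and lower in 0.569% of tested genes and in none of the 10. Ier3 had the lowest p there as well, with a response smaller by 0.38 on the log2 scale (-0.38, SE 0.12, 95% confidence interval -0.655 to -0.0986, adjusted p = 0.491).

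Replicate libraries of the 10 genes differed in a regular way. In each of the 3 LPS groups all 10 genes were higher in replicate 1 than in replicate 2, by a median of 0.16 in WT, 0.28 in WT with the inhibitor and 0.46 in KO cells on the log2 scale, where the median over all tested genes was between -0.01 and 0.01. In the 3 groups without LPS 3 or 4 of the 10 were higher in replicate 1. In all 3 of those groups Ier2, Ier5 and Btg2 were higher in replicate 1, and Egr1, Egr2, Egr3, Ier3, Myc and Srf were higher in replicate 2. The LPS change of Egr1 was 1.47 in WT libraries numbered 1 and 0.62 in those numbered 2, and 1.59 and 0.61 in KO cells. For Myc it was 5.52 and 4.77 in WT and 5.32 and 4.68 in KO cells. Libraries with the same number thus resembled each other across genotypes, and what sets the numbers apart was not tested.

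**Figure D5:**
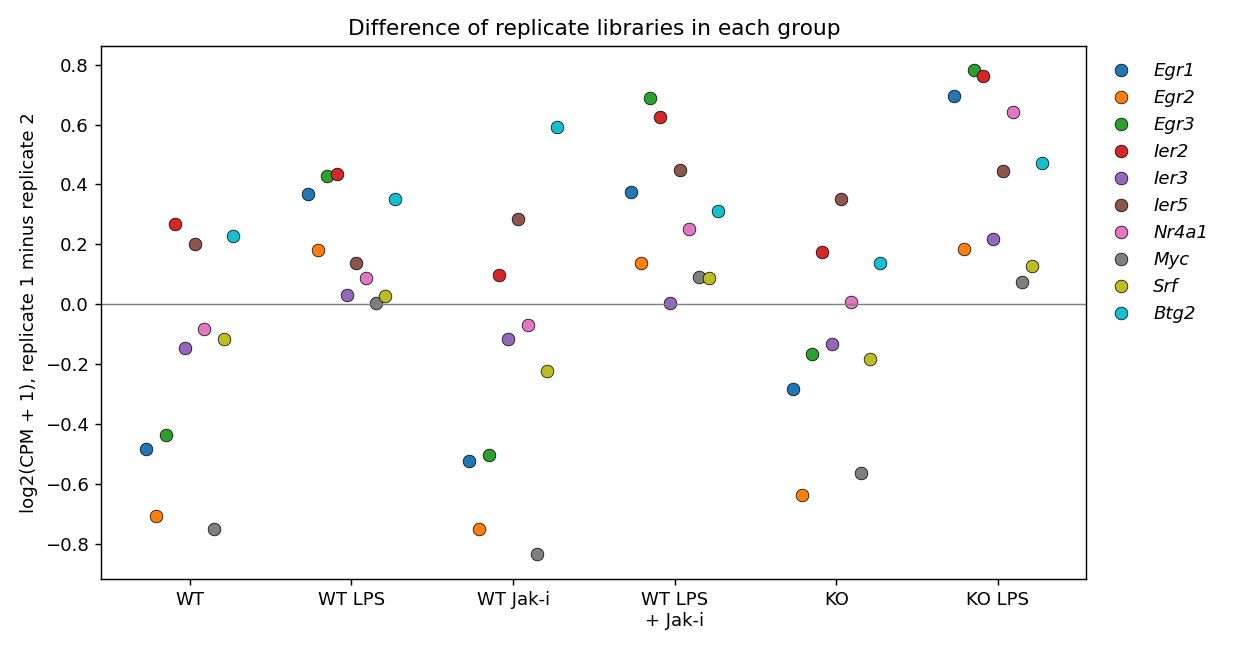
Difference of replicate 1 minus replicate 2 in log2(CPM + 1) for the 10 genes in each of the 6 groups. All points of the 3 LPS groups are above 0, and without LPS the points spread on both sides, with Myc and Egr2 lowest.

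Profiles over the 12 libraries were compared by the root mean square difference of log2(CPM + 1), each gene centred on its own mean, as a description over libraries that share groups. Among the 10 genes Ier2 and Ier5 were nearest to each other (0.171), followed by Ier5 and Srf (0.247), and Nr4a1 and Myc were farthest apart (2.34). Over the 9579 other genes with at least 5 CPM in their highest group, the nearest to Srf were Spi1, the macrophage lineage factor PU.1 (0.0666), and Cln3 (0.102). Nearest to Ier2 were Rrad (0.0868) and Tnfrsf12a (0.138), to Ier5 Rap2b (0.117) and Ndel1 (0.125), and to Btg2 Pou2f2 (0.119) and Cdc42ep4 (0.125). Egr1 had Tnip3 (0.196) and Cldn12 (0.206), and Nr4a1 had the stress factor gene Atf4 (0.126) and Ahdc1 (0.137).

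Nearest to Myc were Traf1, an NF-kB-induced adaptor (0.172), and Phlda1 (0.295), and nearest to Egr3 were Tpbg (0.241) and Gfod1 (0.262). Egr2 had the miR-155 host gene Mir155hg (0.294) and the RNA sensor gene Ifih1 (0.3). The mean of Tpbg went from 0.0252 CPM in untreated WT to 5.28 CPM in WT with LPS, and that of Mir155hg from 0.126 to 17.3 CPM. For such levels near 0 the log2(CPM + 1) scale understates the change, so a near profile does not mean a like fold change. Nearest to Ier3 were Dusp2, which encodes a MAP kinase phosphatase (0.318), and Errfi1, an inhibitor of EGF receptor signalling (0.336). Errfi1 was at 11.8 CPM in untreated WT, 92.3 CPM in WT with LPS and 185 CPM in KO cells with LPS.

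Relatives of the 10 genes, 12 in all, were followed beside them, and 8 passed the filter. In WT cells LPS raised 4 of the 8 and lowered 3 (median 0.13), and in KO cells it raised 4 and lowered 2 (median 0.21). Beside these, 13.7% of all tested genes were called higher and 53.6% lower in WT cells, and 13.9% and 52.7% in KO cells. The orphan receptor gene Nr4a3 had 3 reads in each untreated WT library and was at 11.3 and 12.7 CPM after LPS, which is 3.59 on the log2 scale (SE 0.14, adjusted p = 3.54e-08), and at 10.1 and 7.30 CPM in KO cells with LPS, where each untreated library had 2 reads. Per kb of exons its mean with LPS was 2.00 CPM for WT and 1.45 CPM for KO cells, where Nr4a1 was at 1.14 and 1.66 CPM per kb. Nr4a2 stayed between 1.65 and 3.07 CPM in all libraries. For LPS in WT cells it was not called (-0.32, adjusted p = 0.0625, or 0.0214 with the block). With the inhibitor present it was called lower after LPS (-0.36, adjusted p = 0.0450), a call that ended on the median-of-ratios scale (-0.18, adjusted p = 0.305).

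Btg1, the closest relative of Btg2, went from 262 and 229 to 706 and 592 CPM in WT cells (1.39, SE 0.14, adjusted p = 1.44e-05) and from 238 and 212 to 609 and 524 CPM in KO cells (1.33, SE 0.14). Tob1, of the same antiproliferative family, fell from 11.9 and 8.32 to 2.78 and 2.85 CPM in WT cells (-1.52, SE 0.2, adjusted p = 0.000107) and by 1.08 on the log2 scale in KO cells (SE 0.2, adjusted p = 0.00104). Tob2 was called lower in WT cells (-0.35, adjusted p = 0.00767), a call that ended on the median-of-ratios scale (-0.07, adjusted p = 0.572), and it was not called in KO cells (-0.15, adjusted p = 0.177). Both EGR corepressor genes rose, Nab2 from 76.0 and 85.1 to 206 and 149 CPM (1.11, SE 0.22, adjusted p = 0.00117) and Nab1 from 107 and 114 to 179 and 152 CPM (0.58, SE 0.11, adjusted p = 0.000921) in WT cells, with 1.48 and 0.58 in KO cells.

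Mycn, the family member known from neural tumours, was at 146 CPM per kb of exons in untreated WT cells, where Myc was at 1.03 CPM per kb, and stayed above Myc after LPS, at 89.8 against 47.4 CPM per kb. Its libraries were at 524 and 439 CPM untreated. With LPS it went to 296 and 296 CPM, which is -0.69 on the log2 scale (SE 0.17, adjusted p = 0.00411), and in KO cells from 536 and 479 to 385 and 279 CPM (-0.63, adjusted p = 0.00722). After rescaling the WT change was -0.41 (adjusted p = 0.0498) and the KO change -0.35 (adjusted p = 0.082). Mycl had 0 reads in the untreated libraries of both genotypes and 33 and 32 reads in WT libraries with LPS. It was below the filter, at no more than 0.848 CPM in any library. Egr4, Ier5l and Btg3 were below it too, at no more than 0.0274, 0.451 and 0.0219 CPM. None of the 8 tested relatives was called between genotypes, in either interaction or between LPS with and without the inhibitor. Of all tested genes 4.31% were called higher and 5.37% lower between untreated genotypes, and 6.19% and 7.66% after LPS. These shares were 0.128% and 0.284% in the genotype interaction and 0.0184% and 0.569% in that of the inhibitor. For the inhibitor with LPS they were 0.0734% and 1.04%. With the replicate block 1 was lower in untreated KO cells (Tob2) and 2 were lower in KO cells after LPS, Nr4a3 (-0.43, adjusted p = 0.0164) and Btg1 (-0.19, adjusted p = 0.00455). The block called 13.7% of all tested genes lower in untreated KO cells and 16.7% lower after LPS.

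Cofactors and kinases that act on SRF were counted next. Of the 5 SRF cofactors tested 0 were called higher and 3 lower in WT cells with LPS, and 1 and 3 in KO cells. Over all tested genes LPS raised 13.7% and lowered 53.6% in WT cells, and 13.9% and 52.7% in KO cells. After rescaling these shares were 26.4% and 32.5% in WT and 26.7% and 33.1% in KO cells. Mkl1, the actin-regulated coactivator MRTF-A, changed by -2.21 (SE 0.11, adjusted p = 1.83e-07) and Elk3 by -1.30 (SE 0.084, adjusted p = 7.93e-07) in WT cells, with -2.15 and -1.25 in KO cells, and both stayed lower after rescaling. Mkl2 changed by -0.56 and lost its call after rescaling (-0.28, adjusted p = 0.0835). Elk4 was called higher in KO cells (0.42, adjusted p = 0.00563). After rescaling Elk4 was called higher in both genotypes (0.48, adjusted p = 0.00294 in WT and 0.69, adjusted p = 0.000317 in KO cells). Its LPS response was not called different between genotypes. Of the 19 genes of the ERK and p38 MAP kinase cascade 5 rose and 10 fell in both genotypes, or 6 and 5 in WT and 7 and 4 in KO cells after rescaling (medians -0.23 and -0.26, which turn to 0.05 and 0.02 after rescaling). Nfkb1, whose product p105 holds Tpl2 inactive, changed by 2.1 (SE 0.069), Mapkapk2 by 0.99, Map3k8, the gene of Tpl2, by 0.89 and Rps6ka5 by -1.56 in WT cells. After LPS KO cells had less Mapkapk2 (-0.44, adjusted p = 0.00365), Map3k8 (-0.39, adjusted p = 0.0439) and Map2k6 (-0.68, adjusted p = 0.0424) and more Map2k1 (0.26, adjusted p = 0.0390) than WT cells, 1 gene higher and 3 lower of 19, or 3 and 5 with the block, beside 6.19% and 7.66% of all tested genes, or 14.9% and 16.7% with the block. Map2k6 and Map2k1 differed in untreated cells too, Map2k6 by -1.21 (adjusted p = 0.00345) and Map2k1 by 0.40 (adjusted p = 0.00659).

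Of 13 tested actin and adhesion targets of SRF, 8 rose and 0 fell in WT cells (median 0.71) and 10 and 0 in KO cells (median 0.69), or 12 and 0 in both after rescaling. The shares of all tested genes that rose and fell were 13.7% and 53.6% in WT and 13.9% and 52.7% in KO cells. After rescaling they were 26.4% and 32.5% in WT and 26.7% and 33.1% in KO cells. Zyx changed by 2.08 (SE 0.1), Filip1l by 1.84, Actg1 by 1.77 and Vcl by 1.75. Between genotypes after LPS only Filip1l of the 13 was called, lower in KO cells (-0.75, adjusted p = 0.0289). In untreated cells only Actg1 was called, also lower in KO cells (-0.47, adjusted p = 0.0194). Over all tested genes 6.19% were called higher and 7.66% lower after LPS, and 4.31% and 5.37% untreated. The block called 4 of the 13 higher and 3 lower after LPS, and 1 and 3 untreated. Its shares over all genes were 14.9% and 16.7% after LPS and 10.9% and 13.7% untreated.

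The MYC network of partners and antagonists had 1 gene higher and 7 lower of 11 in WT cells (median -0.35) and 1 and 6 in KO cells (median -0.26), or 2 and 4 and 2 and 5 after rescaling (medians -0.06 and 0.01). Of all tested genes 13.7% were called higher and 53.6% lower in WT cells, and 13.9% and 52.7% in KO cells. After rescaling these shares were 26.4% and 32.5% in WT and 26.7% and 33.1% in KO cells. Among the antagonists of MYC, Mnt changed by -2.17 (SE 0.14), Mxd3 by -1.49, Mxd4 by -1.02 and Mxd1 by -0.86, where the call of Mxd4 ended after rescaling (-0.78, adjusted p = 0.0577). Mnt was higher in KO than WT cells after LPS (0.51, adjusted p = 0.0401), the only gene of the 11 called in that comparison, where the block called 2 higher and 2 lower. In that comparison 6.19% of all tested genes were called higher and 7.66% lower, or 14.9% and 16.7% with the block. Among 28 MYC target genes of ribosome and nucleotide synthesis 11 rose and 2 fell in WT cells (median 0.14) and 10 and 2 in KO cells (median 0.19), or 18 and 0 and 21 and 0 after rescaling and 14 and 6 and 16 and 6 with the block, which called 18.0% of all genes higher and 62.8% lower in WT and 18.3% and 62.2% in KO cells. Odc1, the first enzyme of polyamine synthesis, changed by 1.56 (SE 0.21) in WT and 2.22 in KO cells, and was higher in KO cells after LPS (0.78, adjusted p = 0.0398), 1 of 2 genes higher and 0 lower of the 28, or 8 and 1 with the block. The nucleolar genes Nop58 and Npm1 changed by 0.81 (SE 0.19) and 0.62 (SE 0.2) and the translation factor gene Eif4a1 by 0.61 in WT cells.

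Of 33 other immediate early genes 22 rose and 8 fell in WT cells (median 1.49) and 22 and 7 in KO cells (median 1.65). Among all tested genes 13.7% rose and 53.6% fell in WT cells, and 13.9% and 52.7% in KO cells. The inducible cyclooxygenase gene Ptgs2 changed by 6.25 (SE 0.26), Phlda1 by 4.95, the stress response gene Gadd45b by 4.92 and the MAP kinase phosphatase gene Dusp5 by 4.70 in WT cells. After LPS 12 of the 33 were higher and 2 lower in KO than in WT cells, or 18 and 7 with the block, beside 6.19% and 7.66% of all tested genes, or 14.9% and 16.7% with the block. The largest of these were Dusp6 (1.60, SE 0.2, adjusted p = 0.000657) and Dusp4 (1.23, adjusted p = 0.00133), which encode phosphatases of ERK, and the AP-1 subunits Jun (1.15, adjusted p = 0.0204) and Fosl1 (1.09, adjusted p = 0.00849). With LPS Dusp6 and Jun fell in both genotypes, by 2.32 and 1.81 on the log2 scale in WT and by 1.31 and 1.36 in KO cells. None of the 33 was called in the interaction of genotype and LPS, beside 0.128% of all tested genes higher and 0.284% lower. The block called 4 of the 33 higher and 1 lower there, beside 1.67% and 2.12% of all tested genes. With the inhibitor added to LPS none of these 6 lists had a called gene, beside 0.0734% of all tested genes higher and 1.04% lower. With the block 2 were higher and 4 lower of the 33, 0 and 2 of the 19, 0 and 1 of the 13 and 3 and 0 of the 28. The block called 1.68% of all genes higher and 2.41% lower. LPS under the inhibitor raised 21 and lowered 10 of the 33 other immediate early genes. It raised 8 and lowered 0 of the 13 actin and adhesion genes, beside 13.5% and 50.8% of all tested genes.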

How the data were processed

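RNA-seq of 12 libraries of RAW 264.7 cells was used, 2 in each of 6 groups taken from the sample labels. The deposited table holds CPM values that the authors made, with TopHat2 2.1.0, HTSeq and edgeR and builds mm10 and GRCm38 named in the submitters' processing notes. The annotation, the strand setting and the HTSeq and edgeR versions are not given in the sources. The table also has 4 columns that match no sample, which were not used, and 5 summary lines, which were left out of the library sums. All values were whole multiples of 1 read within 0.02 reads, and genes held 58.9 to 64.1% of the 57.1 to 74.2 M counted reads. CPM was rescaled to gene reads, so that 1 read is 0.0219 to 0.0278 CPM.

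A gene entered the test when 2 or more libraries reached 1 CPM. The test ran on log2(CPM + 1) with limma 3.58.1 in R 4.3.3, with a mean-variance trend, one fit of the 6 group means (6 residual degrees of freedom, 3.54 prior) and Benjamini-Hochberg adjustment. The settings varied were the pseudocount (0.25), the filter (none, or 5 CPM), median-of-ratios rescaling, CPM as deposited, the replicate number as a block, only the groups compared, edgeR 4.0.16 and DESeq2 1.42.0 on the recovered reads, and each library left out. The edgeR fit with the block was added after seeing the data. Libraries with the same replicate number deviated together in all 15 pairs of groups (correlation over genes 0.468 to 0.737). Only the fits with the block took these numbers, which come from the labels, to pair the samples. The main fit did not, so its SE, intervals and p leave the pairing out. The limma fit was also run on simulated libraries drawn independently, with known changes in a small part of the genes. These hold no shared deviation of replicate numbers and no change of most genes, so they do not test the fit under such conditions.

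The 10 genes and the gene lists were chosen with earlier results of these data known. The text names the 10 genes, their relatives, up to 4 genes per list with the largest change among the called, the 2 genes nearest each by profile, and Parp14, Cish and Socs3 as checks, while predicted genes are not named. Gene positions and exon lengths are those of GENCODE M21 on GRCm38. Promoter windows are from RefSeq, build GRCm38.p6.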

Additional observations from a re-analysis of the deposited data

Results flagged for a closer look

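Ier3 was the gene of the 10 whose LPS response differed between genotypes by a test of the difference itself. The response was larger in KO cells by 1.2 on the log2 scale (SE 0.124, adjusted p = 0.00383, limma). Both KO libraries with LPS were above both WT libraries with LPS, and untreated libraries of the genotypes overlapped.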

How the results depend on the processing

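Over 90 changes of the 10 genes, 1331 values were recomputed: 1290 kept direction and call, 16 lost and 25 gained a call, and 0 called changes turned direction, while 37 of the 60 changes that were not called changed sign under some setting. With the replicate block, 1 gene was called between untreated genotypes, 4 after LPS, 2 in the genotype difference of the LPS response, and 10 for LPS under the inhibitor, and the block changed no other call of the 10. The edgeR fit with the block, chosen after seeing the data, called 1, 5 and 2 in the first 3 of these comparisons, with Egr2 lower in KO cells after LPS (-0.44, adjusted p = 0.0482). Leaving out single libraries, which leaves 1 library in a group, lost some LPS calls of the 10 in WT cells, in KO cells and under the inhibitor. Egr1 gained a call under the inhibitor, and Nr4a1 gained one between genotypes after LPS. Over all tested genes fewer were called for LPS in each of these fits than with every library. Over all tested genes, counts between genotypes were 1055 untreated (2685 with the block, 2811 with edgeR and the block, 477 to 548 without 1 library) and 1510 after LPS (3438, 3472, and 871 to 934). The genotype difference of the LPS response had 45 (413 with the block, 10 with edgeR, 18 to 34 without 1 library), the inhibitor with LPS 121 (446, and 59 to 96 without 1 library), the inhibitor difference of the response 64 (318 with the block, 37 with only the groups compared, and 30 to 54), and the inhibitor alone 0 (4 with the block, 0 to 1). The 2 libraries a group limit the precision of all 10. The cause of the lost and gained calls was not tested.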
